A study of Mus musculus with 656 samples.

Results

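SC-514 at 25 µM, the lowest concentration of the inhibitor used in the series, was compared with 0 µM at 120 min after stimulation in mouse 3T3 fibroblasts labelled as given TNF-α. The groups compared were defined by the sample labels, with 4 libraries at 25 µM and 4 libraries at 0 µM. The series holds 41 groups of 4 libraries. The comparison and the gene lists used below were chosen with earlier results of these data known, so the list counts are descriptive. 3T3 cells are an established line of embryonic mouse fibroblasts. Per the labels, cells were kept in medium with SC-514 for 1 h, then received TNF-α at 10 ng/ml, and poly(A) RNA was read from the 3′ side by a tag-based RNA-seq method (TagSeq). Both groups carried the TNF-α label and were sampled at the same time, so they differed by the label for inhibitor concentration only. The labels do not say what the 0 µM cells received in place of the inhibitor, and no group had inhibitor without stimulus. The other groups of the series were 1 unstimulated group without inhibitor, the same design at 50 and 100 µM and at 15, 30, 60 and 360 min, and the whole design again under IL-1β at 1 ng/ml. The prefix in the sample titles and the prefix in the sample descriptions belong to different stimuli, so a group is called here by its stimulus label. Whether the libraries of 1 group stem from separate cultures is not stated, and p-values then cover only the spread among these libraries. The series asks what blocking IKKβ does to transcription driven by NF-κB.

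TNF-α binds its receptor on the fibroblast surface and activates the IκB kinase complex. In that complex the catalytic subunit IKKβ marks IκBα for destruction, and the freed NF-κB dimers enter the nucleus and switch on chemokines, adhesion molecules, proteases and the genes of their own inhibitors. SC-514 is a small-molecule inhibitor of IKKβ that competes with ATP. The same receptor also feeds the MAP kinases ERK, JNK and p38, which act through the serum response factor SRF and its partners on immediate early genes such as Fos, Egr1 and Junb. These genes are copied within minutes without new protein synthesis, and their mRNAs are short-lived.

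Library totals were 994170 to 1221885 counts at 25 µM and 1028585 to 1435767 counts at 0 µM, with 13150 to 13440 and 13201 to 13799 genes detected. The mitochondrial share of counts, a sign of RNA quality, was 0.589 to 0.683% at 25 µM and 0.469 to 0.631% at 0 µM. Summed fibroblast markers came to 8060 to 8568 CPM (counts scaled to a common library total) at 25 µM and 7733 to 8407 CPM at 0 µM, with Lum at 0 counts and 1 count and Fap at 2 counts in each group. Of 12 tested fibroblast markers 3 were higher and 0 lower at 25 µM, beside 4.03% higher among all genes tested. The 3 were the collagen genes Col1a1 (0.24), Col1a2 (0.24) and Col3a1 (0.47). Summed markers of other cell types came to 170.1 to 191 CPM at 25 µM and 137 to 164.4 CPM at 0 µM, and the groups did not overlap. Of these 26 markers 23 were in the table and 6 could be tested, and Lpl, a lipase of adipocytes and other cells, was the 1 that passed, while Epcam, Krt5, Adgre1, Cd3e, Tek, Adipoq, Gfap and Alb had no count in either group. Lpl was at 149 ± 10.9 CPM at 25 µM and 106 ± 10.7 CPM at 0 µM (SD, n = 4 each). Most counts in the sum were from Lpl, with 603 counts at 25 µM and 481 at 0 µM. The other markers together had fewer counts at 25 µM than at 0 µM, and the median log2 change of the 6 tested markers was -0.34. The part of these markers in the results below was not tested. In bulk RNA, fewer cells of a type and less RNA per cell cannot be told apart.

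At 25 µM SC-514 the clearest change was a rise of immediate early genes and of phosphatases and feedback inhibitors that follow MAP kinase activity. A limited set of TNF-α-induced genes, led by Ptges, Mmp3, Saa3, Serpinb2 and Il1a, fell. Genes that did not pass between TNF-α at 0 µM and unstimulated cells fell as well, among them Nes, Megf10, Nmnat2 and St3gal6. The genes usually taken as the readout of NF-κB, among them Nfkbia, Tnfaip3, Cxcl1, Il6 and Icam1, did not pass the test in either direction at this dose and time. Over all genes, 950 of 10766 tested (8.82%) passed the threshold of an adjusted p of 0.05, with 434 higher (4.03%) and 516 lower (4.79%) at 25 µM. Of these, 51 rose and 75 fell at least 2-fold, and the median size of a change on the log2 scale was 0.53 among the higher and -0.50 among the lower genes. In 720 of the 950 genes the 4 libraries at 25 µM did not overlap the 4 at 0 µM, and 1243 of all genes tested (11.5%) had such separate groups. With RLE in place of TMM scaling the count was 1001, with 389 higher and 612 lower. Fold changes, standard errors (SE) and 95% confidence intervals are those of edgeR's quasi-likelihood model, given as log2 of 25 over 0 µM, and adjusted p-values are edgeR's with the Benjamini-Hochberg method over all genes tested.

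**Figure D1:**
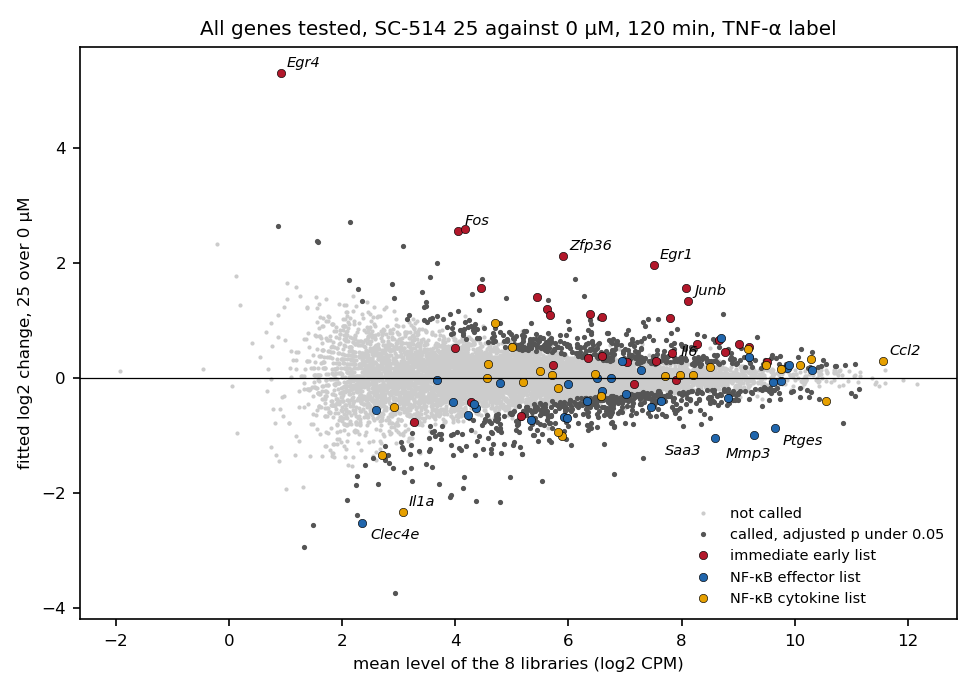
Each point is 1 of the 10766 genes tested. The x axis is the mean level over the 8 libraries in log2 CPM and the y axis is the fitted log2 change of 25 over 0 µM SC-514. Grey points were not called, dark points were called, and coloured points are members of 3 gene lists. Immediate early genes such as Fos (2.55) and Egr1 (1.96) sit above 0, Mmp3 (-1.0) and Il1a (-2.33) sit below it, and Il6 (0.05) lies on it. Egr4, at the top, had no count at 0 µM, so its drawn value has no meaning as a fold.

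The stretches of DNA just before the start sites of 7 genes are shown as examples of genes that rose, fell or did not pass, and each was picked because it holds a motif. The genes and the motifs were picked after their values were seen, so a motif here is not tied to an outcome. Each is the last 120 bases before the start that RefSeq gives, on GRCm38.p6, 5′ to 3′ on the gene's own strand. Capitals mark matches of a motif on either strand. For Srf (chr17:46556163-46556282, minus strand), Dusp5 (chr19:53529025-53529144, plus strand) and Zfp36 (chr7:28379229-28379348, minus strand), which rose at 25 µM, the motif is the CArG box, the element bound by SRF. For Mmp3 (chr9:7445702-7445821, plus strand) and Il1a (chr2:129309973-129310092, minus strand), which fell, it is TGANTCA, the AP-1 element. For Cxcl1 (chr5:90891125-90891244, plus strand) and Il6 (chr5:30012994-30013113, plus strand), which did not pass the test, it is a κB element, spelt GGG, NN, TT, N and CC in this order without gaps.
Srf: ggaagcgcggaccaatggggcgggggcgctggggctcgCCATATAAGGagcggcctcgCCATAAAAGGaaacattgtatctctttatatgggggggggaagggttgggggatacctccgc
Dusp5: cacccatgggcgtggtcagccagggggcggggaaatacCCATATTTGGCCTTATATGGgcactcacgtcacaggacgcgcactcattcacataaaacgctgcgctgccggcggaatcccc
Zfp36: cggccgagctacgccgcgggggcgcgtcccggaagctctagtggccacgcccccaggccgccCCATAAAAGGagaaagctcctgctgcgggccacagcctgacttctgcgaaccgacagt
Mmp3: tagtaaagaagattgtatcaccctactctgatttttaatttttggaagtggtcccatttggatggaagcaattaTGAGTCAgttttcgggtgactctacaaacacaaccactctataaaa
Il1a: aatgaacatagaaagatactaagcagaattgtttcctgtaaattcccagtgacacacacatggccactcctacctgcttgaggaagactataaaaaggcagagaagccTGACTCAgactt
Cxcl1: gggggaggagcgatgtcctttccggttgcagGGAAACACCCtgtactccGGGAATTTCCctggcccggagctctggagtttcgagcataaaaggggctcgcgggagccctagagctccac
Il6: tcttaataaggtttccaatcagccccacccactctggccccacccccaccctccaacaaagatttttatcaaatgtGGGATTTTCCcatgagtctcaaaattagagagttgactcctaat
The windows of Srf and Dusp5 each held 2 CArG boxes, which adjoin in Dusp5, and that of Cxcl1 held 2 κB matches. The window of Dusp5 also matched the κB motif. Other named genes held no match: there was no CArG box in Fos, Junb, Ccn1, Dusp2, Dusp6, Kctd11, Ankrd1 or Ddit4, no TGANTCA in Ptges, Saa3, Traf1 or Clec4e, and no κB motif in Icam1, Csf2 or Ptgs2, while Il1rn, which fell, had a κB match in 1 of 3 windows. Among all 32851 windows of the same length in the table, 0.749% held a CArG box, 3.41% TGANTCA and 2.05% the κB motif. A match is a run of letters and does not show that the factor was bound in these cells. Fewer than 80% of the called genes had a window (75.6% of the higher and 78.9% of the lower genes), so no share was taken over them.

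Immediate early genes rose as a group. Of 36 genes on the list 32 could be tested, and 22 were higher and 0 lower at 25 µM, against 4.03% higher among all genes tested. The median log2 change of the list was 0.58, beside 0.007 over all genes. Under RLE scaling 21 were higher and 1 lower, and without any single library of the 8 the number higher stayed between 18 and 21. The plot of levels by library shows 5 of these genes and Dusp5 in its top row.

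Egr1, a zinc-finger transcription factor on chromosome 18 (GRCm38, 34859823 to 34864984), had 301, 232, 356 and 269.7 CPM in the 25 µM libraries, against 71.9, 64.4, 78.4 and 82.9 CPM in the 0 µM libraries. Every 25 µM library lay far above every 0 µM library. The change was 1.96 on the log2 scale (SE 0.25, edgeR adjusted p = 1.2e-09). Zfp36 encodes tristetraprolin, a protein that binds AU-rich elements and speeds the decay of cytokine mRNAs, among them that of TNF-α. Its level was 78.5, 72.5, 112 and 127 CPM at 25 µM, against 20.98, 19.7, 19.6 and 29.2 CPM at 0 µM. The groups did not overlap, and the change was 2.12 (SE 0.29, edgeR adjusted p = 1.6e-08).

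Of the genes for AP-1 subunits, Fos had 29.6, 23.8, 29.4 and 31.1 CPM at 25 µM, against 6.0, 4.15, 5.97 and 2.73 CPM at 0 µM. This was a low level in both groups, but the libraries were separate and the change was 2.55 (SE 0.47, edgeR adjusted p = 2.9e-05). Junb had 419, 402, 389.7 and 381 CPM at 25 µM, against 190.3, 139, 159 and 137 CPM at 0 µM. Its groups were likewise separate, with a change of 1.34 (SE 0.16, edgeR adjusted p = 3.1e-10). Fosl2 rose by 0.58 and Jund by 0.43. Fosb had an edgeR adjusted p of 0.046 and overlapping groups. Egr4 had 1.74, 3.25, 5.06 and 5.01 CPM at 25 µM and no count in any 0 µM library, and no fold is given for it.

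The gene of SRF itself rose too. Srf had 124, 137, 131 and 132 CPM at 25 µM, against 68.9, 57.1, 61.4 and 62.0 CPM at 0 µM. The 2 groups were narrow and far apart, and the change was 1.06 (SE 0.14, edgeR adjusted p = 2.4e-09). Ccn1, a matrix protein gene that responds to SRF and to YAP, had 383, 280.4, 504 and 455 CPM at 25 µM, against 189, 116, 126 and 112 CPM at 0 µM. All 4 libraries at 25 µM were above those at 0 µM, with a change of 1.56 (SE 0.21, edgeR adjusted p = 5.1e-09). Its relative Ccn2 rose by 1.41, Ankrd1, a muscle and stress ankyrin-repeat gene, by 1.05, and Thbs1, thrombospondin, by 0.51. Among the 27 tested genes of matrix, contraction and YAP activity 8 were higher and 1 was lower. The shares over all genes tested were 4.03% higher and 4.79% lower. The 1 lower gene of the list was Tagln, a smooth-muscle actin-binding protein gene (-0.86, edgeR adjusted p = 0.036). The call for Tagln was lost without 5 of the 8 libraries in turn, and 4 genes were higher without library number 2, or number 3, of every group. The other immediate early genes that rose by more than 1 on the log2 scale were Egr2 (1.20), Klf10 (1.09), Ier2 (1.04), Btg2 (1.11) and Csrnp1 (1.56).

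**Figure D2:**
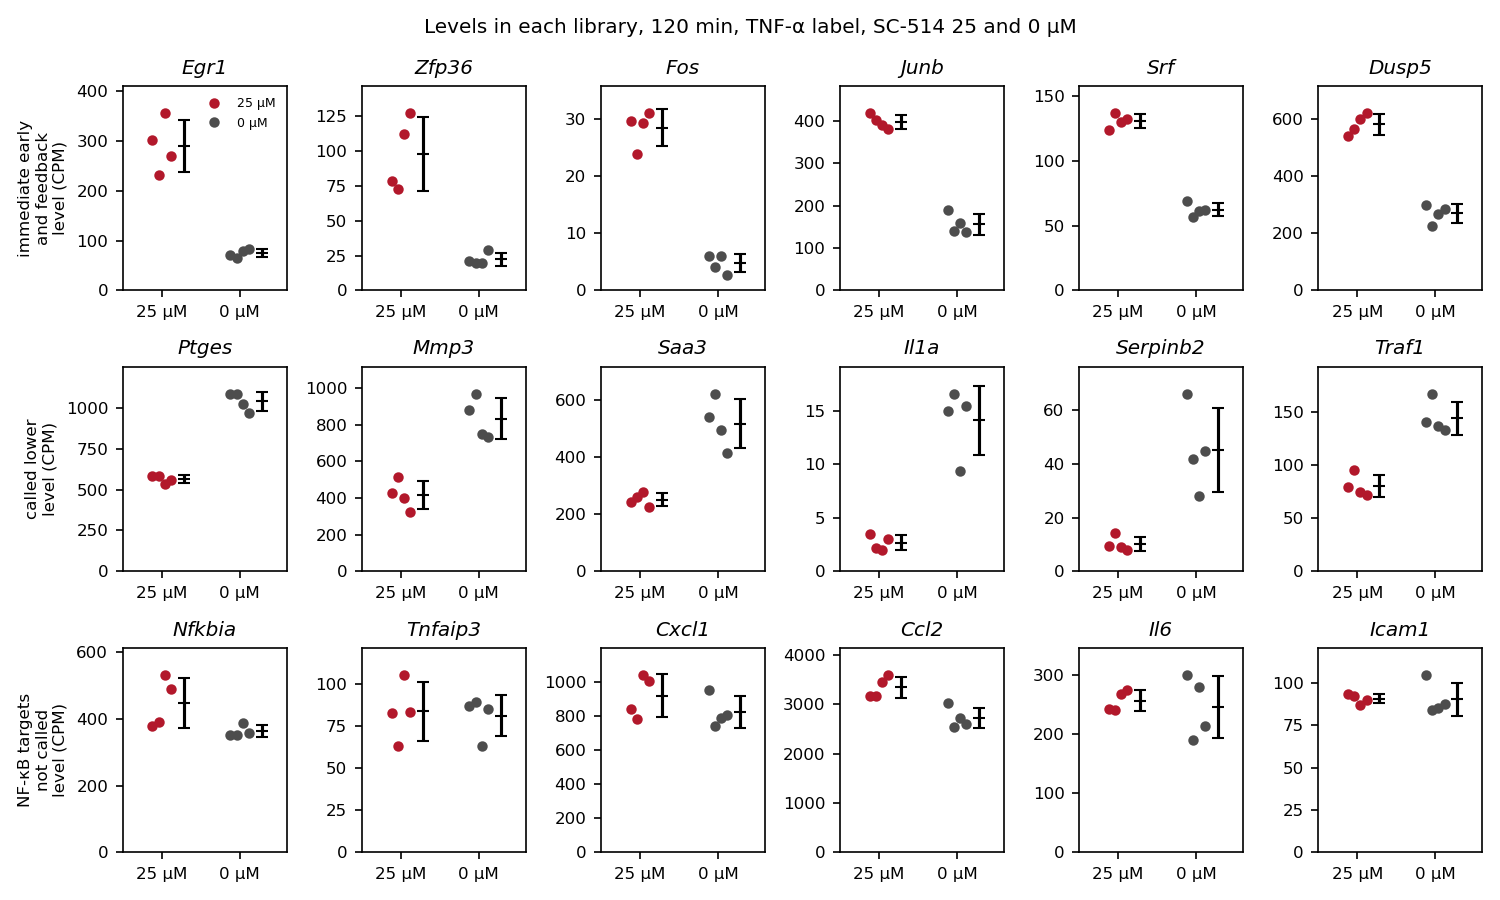
Levels of 18 genes in CPM on the y axis of each panel, with the 4 libraries at 25 µM SC-514 in red on the left and the 4 at 0 µM in grey on the right. The black bar is the mean and its whiskers are 1 SD. In the top row (Egr1, Zfp36, Fos, Junb, Srf, Dusp5) and the middle row (Ptges, Mmp3, Saa3, Il1a, Serpinb2, Traf1) the groups are separate, while in the bottom row Nfkbia, Tnfaip3, Cxcl1, Il6 and Icam1 overlap and Ccl2 is separate without passing the test.

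Of 19 tested genes for MAP kinase phosphatases and ERK feedback, which restrain MAP kinases, 8 were higher and 0 lower, against 4.03% higher among all genes tested, with a median log2 change of 0.50. With DESeq2 5 were higher, and the median was 0.32 to 0.66 over the alternatives. The phosphatase gene Dusp5, whose product removes phosphate from nuclear ERK, had 539, 564, 598 and 621 CPM at 25 µM, against 299, 225, 266 and 284 CPM at 0 µM. The groups were wide apart, with a change of 1.10 (SE 0.15, edgeR adjusted p = 7.5e-09). Dusp6, the cytoplasmic ERK phosphatase gene, was at 259 ± 21.7 CPM at 25 µM and 163.7 ± 5.06 CPM at 0 µM (SD, n = 4 each), a change of 0.66. Phlda1 rose by 0.71, Errfi1, an inhibitor of the EGF receptor, by 0.56, and Hbegf, a ligand of that receptor, by 0.85. Dusp2, a low gene with at most 10.1 CPM in any of these libraries, rose by 2.70 (SE 0.61, edgeR adjusted p = 0.00089).

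Of 14 tested genes of JAK-STAT feedback 5 were higher and 0 lower, against 4.03% higher among all genes tested, with a median of 0.29. The count fell to 2 without library number 1 at 25 µM, to 3 without 6 of the other 7 libraries, and to 1 with DESeq2. Socs3, which blocks signalling from the gp130 receptor, was at 257 ± 48.5 CPM at 25 µM and 126 ± 15.3 CPM at 0 µM (SD, n = 4 each), a change of 1.02 (SE 0.23, edgeR adjusted p = 0.00094). The receptor subunit gene Il6st rose by 0.31 and Jak1 by 0.36. Cish also passed, but its groups overlapped, and its call was lost without number 1 or 4 at 25 µM or number 2, 3 or 4 at 0 µM.

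Of 29 tested genes for NF-κB pathway components and feedback 1 was higher and 3 were lower at 25 µM (edgeR adjusted p under 0.05), against 4.03% higher and 4.79% lower among all genes tested, and the median was -0.097. Nfkbia encodes IκBα, the inhibitor that IKKβ marks and that NF-κB itself induces. It had 379, 391, 533 and 490.3 CPM at 25 µM, against 354, 353, 389.7 and 359 CPM at 0 µM. The groups touched, and the log2 change of 0.30 had an interval of 0.03 to 0.57 and an edgeR adjusted p of 0.17. For Tnfaip3, the ubiquitin-editing enzyme A20, the change was 0.05 with an interval of -0.35 to 0.45. For Nfkbiz, an atypical IκB that co-activates late genes, it was 0.11 with an interval of -0.13 to 0.35. The genes of the kinases that SC-514 is aimed at and of its partner, Ikbkb and Chuk, had changes of -0.14 (interval -0.46 to 0.18) and -0.36 (interval -0.66 to -0.07, edgeR adjusted p = 0.12).

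The 3 pathway genes that fell were Traf1, Ikbke and Nfkb1. Traf1, an adaptor of TNF receptors, had 79.3, 95.3, 74.9 and 72.2 CPM at 25 µM, against 140.1, 167, 136 and 133 CPM at 0 µM. These groups were separate, and the change was -0.84 (SE 0.14, edgeR adjusted p = 3.3e-06). Ikbke, a kinase related to IKKβ, was at 16.6 ± 3.01 CPM at 25 µM and 32.8 ± 6.37 CPM at 0 µM (SD, n = 4 each), a change of -0.95. Nfkb1, which encodes the p105 precursor of p50, was at 241 ± 13.3 CPM at 25 µM and 309 ± 20.5 CPM at 0 µM (SD, n = 4 each), a change of -0.36 (SE 0.10, edgeR adjusted p = 0.0096). Its call was lost without library number 1, or number 3, of every group. The 1 that rose was Map3k14, the NF-κB-inducing kinase of the second NF-κB pathway, with an edgeR adjusted p of 0.042.

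Cytokines and chemokines did not move as one group. Of 26 tested 2 were higher, 4 lower and 20 passed in neither direction, and the median was 0.056. Beside this, 4.03% of all genes tested were higher and 4.79% lower. Over the alternatives 0 to 6 were higher (6 without the low-count filter, 0 without library number 2, or number 4, of every group), 3 to 5 were lower, and the median was -0.020 to 0.15. Il1a, the interleukin-1α gene, had 3.49, 2.17, 2.02 and 3.01 CPM at 25 µM, against 15.0, 16.6, 9.38 and 15.5 CPM at 0 µM. The levels were low but the groups were separate, with a change of -2.33 (SE 0.45, edgeR adjusted p = 8.2e-05). Il11, a cytokine of the gp130 family, was at 39.0 ± 9.69 CPM at 25 µM and 78.8 ± 15.3 CPM at 0 µM (SD, n = 4 each), a change of -1.02 (SE 0.22, edgeR adjusted p = 0.0006). Il1rn, the interleukin-1 receptor antagonist, fell by 0.93 and Ccl17 fell by 1.35. The 2 that rose were Lif (0.50), another gp130 cytokine, and Tslp (0.96).

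The abundant chemokines and Il6 did not pass the test. Il6 had 243, 241, 269 and 276 CPM at 25 µM, against 301, 190.0, 279.7 and 214 CPM at 0 µM. The 25 µM libraries lay inside the range of the 0 µM libraries, and the change of 0.05 had an interval of -0.32 to 0.43 (edgeR adjusted p = 0.92). Cxcl1, a neutrophil chemokine, had 844, 783, 1043 and 1007 CPM at 25 µM, against 955, 741, 788 and 805 CPM at 0 µM. Its groups overlapped too, with an interval of -0.12 to 0.43 around 0.16. Ccl2, the monocyte chemokine and the most abundant gene of the list, had 3166, 3171, 3444 and 3597 CPM at 25 µM, against 3018, 2544, 2718 and 2605 CPM at 0 µM. Here the groups were separate, but the change of 0.30 had an edgeR adjusted p of 0.08, and it passed in 4 of 21 alternatives. Cxcl5 was the nearest miss on the low side, at 1300.5 ± 166 CPM at 25 µM and 1711 ± 190.0 CPM at 0 µM (SD, n = 4 each), with a change of -0.39 and an edgeR adjusted p of 0.052. A p that misses the threshold does not show that these genes were equal in both groups, and the intervals bound the size.

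The adhesion, protease and effector genes held most of the decrease among NF-κB targets. Of 32 tested 9 were lower and 1 was higher at 25 µM (7 to 11 and 0 to 4 over the alternatives), and the median was -0.32. The shares over all genes tested were 4.79% lower and 4.03% higher. Ptges, the inducible prostaglandin E synthase on chromosome 2 (GRCm38, 30889471 to 30929863), had 582, 584, 532 and 560.5 CPM at 25 µM, against 1085, 1084, 1019 and 965 CPM at 0 µM. The 4 values in each group were close together and the groups far apart, with a change of -0.88 (SE 0.09, edgeR adjusted p = 2.9e-13). Mmp3, the matrix protease stromelysin, had 427, 515, 401 and 324 CPM at 25 µM, against 879.8, 969.7, 752 and 734 CPM at 0 µM. Again no library crossed, and the change was -1.0 (SE 0.10, edgeR adjusted p = 3.1e-13). Saa3, an acute-phase protein gene of mouse fibroblasts and macrophages, had 242, 261, 276 and 225 CPM at 25 µM, against 539, 622, 495 and 415 CPM at 0 µM. It changed by -1.04 (SE 0.16, edgeR adjusted p = 3.6e-07), with separate groups.

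Smaller decreases in this list were seen for Mmp10 (-0.68), the phospholipase gene Pla2g4a (-0.70), the zinc transporter gene Slc39a14 (-0.51), the urokinase receptor gene Plaur (-0.40) and Sod2 (-0.35), the mitochondrial superoxide dismutase. F3, tissue factor, was the 1 that rose (0.69, edgeR adjusted p = 0.0011). Icam1, a leukocyte adhesion receptor, was at 90.7 ± 2.71 CPM at 25 µM and 90.4 ± 9.75 CPM at 0 µM (SD, n = 4 each), with an interval of -0.36 to 0.36 around no change. Vcam1 had a change of 0.13 (interval -0.07 to 0.33) and Ptgs2, the cyclooxygenase upstream of Ptges, of 0.23 (interval -0.06 to 0.52). Nos2, the inducible nitric oxide synthase, had a lower mean at 25 µM, 30.4 ± 12.5 CPM, against 51.0 ± 6.33 CPM at 0 µM (SD, n = 4 each), without passing (edgeR adjusted p = 0.15).

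By size, the 12 lowest genes with separate groups were Clec4e (-2.52), Dio2 (-2.39), Il1a, Serpinb2 (-2.16), Kcnk10 (-2.14), Nes (-2.07), Upp1 (-2.03), Megf10 (-1.92), Stfa3 (-1.86), Zfp52 (-1.85), Nmnat2 (-1.80) and St3gal6 (-1.79). Some of these were TNF-α-induced genes. Serpinb2, the plasminogen activator inhibitor PAI-2, had 9.59, 14.1, 9.11 and 8.02 CPM at 25 µM, against 65.9, 41.5, 28.1 and 44.6 CPM at 0 µM, and in unstimulated cells it was at 5.09 ± 2.28 CPM (SD, n = 4). The highest 25 µM library was below the lowest 0 µM library. Nmnat2, an enzyme of NAD synthesis known from axons, had 20.9, 15.2, 25.3 and 20.1 CPM at 25 µM, against 60.0, 76.8, 75.9 and 74.7 CPM at 0 µM, and was at 64.6 ± 4.44 CPM in unstimulated cells. Its level at 25 µM was thus below that of cells without either agent. Clec4e, Dio2, Stfa3 and Zfp52 were under 15 CPM in every one of these libraries, and the call for Stfa3 was lost without number 1 or 2 of either group.

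The 12 with the largest rise were Dusp2 (2.70), Fos, Megf6 (2.37), Epb41l4b (2.37), Synm (2.29), Zfp36, Atoh8 (2.00), Egr1, Kctd11 (1.72), Smad6 (1.72), Cdhr1 (1.70) and Rab36 (1.64). Kctd11, an adaptor of a ubiquitin ligase that restrains Hedgehog signalling, had 107, 83.4, 129.6 and 105 CPM at 25 µM, against 29.2, 27.0, 29.8 and 42.8 CPM at 0 µM. No library crossed, and its edgeR adjusted p was 2.5e-12 (SE 0.19). Smad6, an inhibitor of BMP signalling, was at 34.2 ± 14.4 CPM at 25 µM and 10.2 ± 1.29 CPM at 0 µM (SD, n = 4 each), and Id1, a BMP target, rose by 0.56. The call for Smad6 was lost without number 3 at 25 µM, and that for Id1 without number 4 of every group. Ddit4, an inhibitor of the growth kinase mTORC1, was at 113 ± 8.62 CPM at 25 µM and 41.7 ± 4.55 CPM at 0 µM (SD, n = 4 each), a change of 1.43 (SE 0.21, edgeR adjusted p = 1.3e-07). Megf6, Epb41l4b, Cdhr1, Synm, Rab36 and Dusp2 were under 18 CPM in every one of these libraries. The calls for Megf6 (without number 2 at 25 µM or number 1 at 0 µM), Epb41l4b (without number 1 at 0 µM), Cdhr1 (without number 1 at 25 µM or number 1 or 4 at 0 µM) and Atoh8 (without number 1 of every group) were lost.

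**Figure D3:**
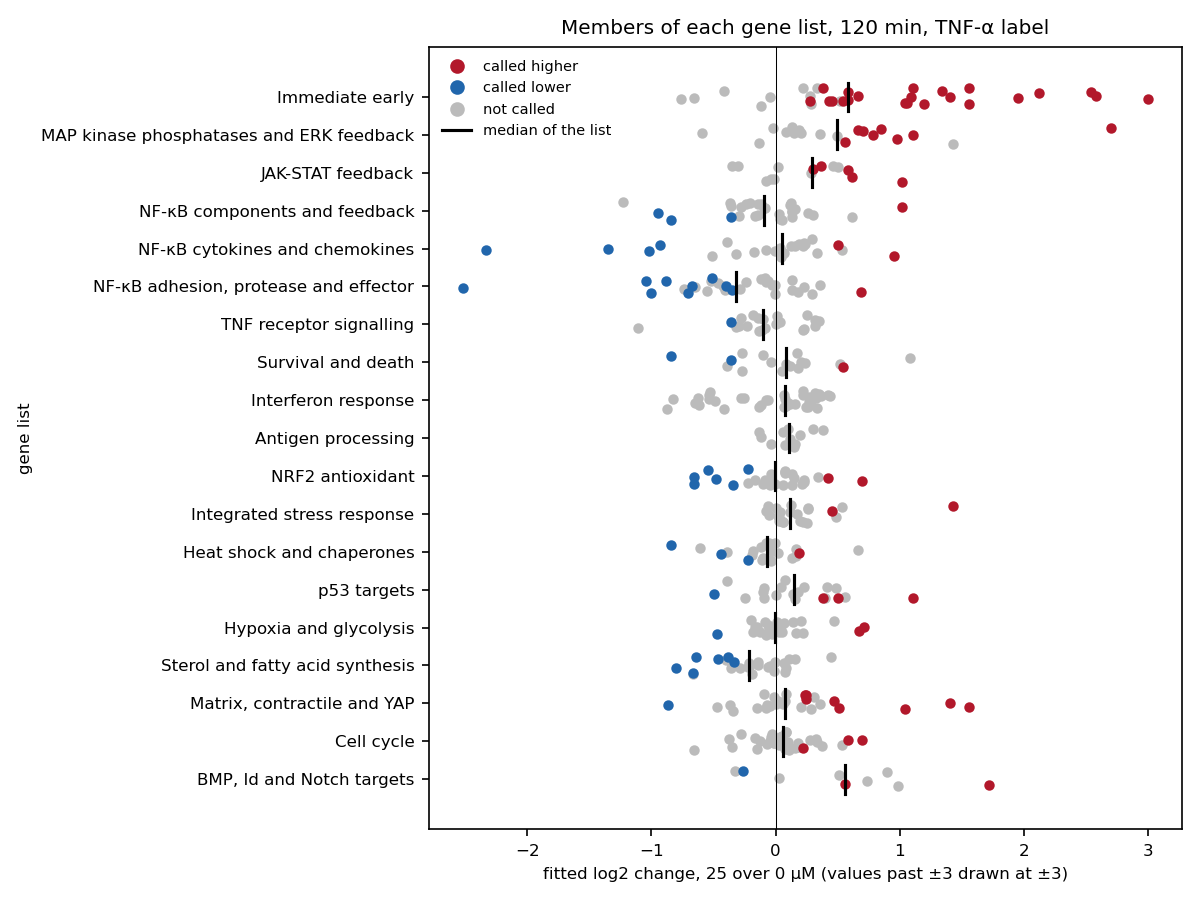
Each point is 1 tested member of a gene list (y axis), placed by its fitted log2 change of 25 over 0 µM SC-514 (x axis, values past 3 in either direction drawn at the edge). Red points were called higher, blue points called lower, grey points were not called, and the black bar is the median of the list. The immediate early list has its median at 0.58 with 22 red points, the effector list at -0.32 with 9 blue points, and the interferon list at 0.078 with no coloured point.

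Other lists held fewer calls, to be read beside the 4.03% higher and 4.79% lower among all genes tested. Of 27 tested genes of sterol and fatty acid synthesis 6 were lower and 0 higher, with a median of -0.22. Among them were Idi1 (-0.80), Hmgcs1 (-0.66), Cyp51 (-0.46), Fasn (-0.38) and Sqle (-0.33), enzymes that make cholesterol and fatty acids. Of 22 heat shock and chaperone genes 3 were lower and 1 higher. The leading one, Hsph1, a co-chaperone of Hsp70, had 180.5, 185, 209.5 and 175 CPM at 25 µM, against 344, 341, 351 and 308 CPM at 0 µM. The change was -0.84 (SE 0.09, edgeR adjusted p = 2.9e-13), and Manf, a chaperone of the endoplasmic reticulum, fell by 0.44.

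Of 27 tested NRF2 antioxidant genes 6 were lower and 2 higher, led by the glutathione-conjugate pump gene Abcc1 (-0.66, edgeR adjusted p = 2.8e-07). Without library number 4 at 25 µM 3 were lower. Hmox1, heme oxygenase, rose by 0.70. Among 37 tested interferon-response genes and 12 antigen-processing genes 0 passed in edgeR's test or in DESeq2, and 1 in each list had an unadjusted p under 0.05. Of the interferon list 4 were higher and 6 lower without the low-count filter, 1 was higher in a fit of the 8 libraries alone, and 2 were higher and 4 lower in the same 8 when blocked by number, where 1 antigen-processing gene was higher too. The median of the interferon list was 0.078, and -0.10 to 0.31 over the alternatives. Among 21 genes of TNF receptor signalling 1 passed, Cflar, an inhibitor of caspase-8, at -0.36 (edgeR adjusted p = 0.019), a call lost without number 1 at 25 µM or number 3 or 4 at 0 µM. The cell cycle list had 3 of 34 tested genes higher and 0 lower (1 higher without library number 1 or 4 at 25 µM or number 3 at 0 µM), the p53 list 3 of 20 higher and 1 lower, the hypoxia list 2 of 24 higher and 1 lower, and the list of survival and death genes 1 of 17 higher and 2 lower. Those shares are near the 4.03% higher and 4.79% lower of all genes tested or rest on few genes.

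Both groups were also set against the unstimulated group, to give the level of the TNF-α response at each dose. At 25 µM with TNF-α 2164 genes (20.1%) differed from unstimulated cells, 1238 higher (11.5%) and 926 lower (8.6%). At 0 µM with TNF-α 1534 genes (14.2%) did, 984 higher (9.14%) and 550 lower (5.11%). These comparisons share the unstimulated libraries, so their values are set side by side only. Of the 26 cytokines and chemokines 22 were higher at 25 µM and 24 at 0 µM, with medians of 2.58 and 2.62 on the log2 scale, and 0 were lower in either. Of the 32 effector genes 23 were higher at 25 µM and 27 at 0 µM, with medians of 1.43 and 1.64. Of the immediate early list 29 of 32 genes were higher and 0 lower at 25 µM with a median of 1.6, and 16 were higher and 1 lower at 0 µM with a median of 0.50. Egr1 was at 289.6 ± 52.7 CPM at 25 µM and 74.4 ± 8.07 CPM at 0 µM, beside 55.0 ± 4.85 CPM in unstimulated cells. Mmp3 was at 417 ± 79.0 CPM at 25 µM and 834 ± 111 CPM at 0 µM, beside 323 ± 21.1 CPM in unstimulated cells (SD, n = 4 in each).

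The higher doses were set against 25 µM at the same time. From 25 to 50 µM, 99 genes (0.92%) passed, 9 higher (0.0836%) and 90 lower (0.836%), and from 25 to 100 µM 1368 genes (12.7%) passed, 434 higher (4.03%) and 934 lower (8.68%). At 50 µM 1 of the 4 libraries held only 3839 counts, so levels there are over 3 libraries, and the test keeps all 4. Without library number 3 in every group 0 genes passed between 50 and 25 µM in edgeR's fit, and 31 to 62 without any other number. Under RLE scaling 50 genes passed, 24% of them higher, and 60.1% of the 1525 calls between 100 and 25 µM were higher, against 31.7% with TMM. With RLE after leaving out the 2 shallow libraries of the series that share was 31.2%. In the same fit 96 genes passed between 50 and 25 µM, 9.38% of them higher. These comparisons share the 25 µM libraries with the main one, so values are given side by side.

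Some genes fell stepwise. Ptges was at 1038 ± 57.8, 564 ± 23.8, 441 ± 50.9 and 296 ± 20.9 CPM at 0, 25, 50 and 100 µM (SD, n = 4, and 3 at 50 µM). Mmp3 was at 834 ± 111, 417 ± 79.0, 271 ± 58.0 and 188 ± 20.9 CPM in the same order. Both were lower at 50 than at 25 µM (-0.37 and -0.63, edgeR adjusted p = 0.042 and 0.0014). Kcnk10, a potassium channel gene, went further, with 33.8 ± 3.83, 7.59 ± 2.57, 1.79 ± 0.879 and 0.336 ± 0.399 CPM over the 4 doses.

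Other genes did not pass at 25 µM and were lower at 100 than at 25 µM. Il6 was at 246 ± 52.7, 257 ± 17.6, 162 ± 26.1 and 31.0 ± 4.50 CPM at 0, 25, 50 and 100 µM, and 100 against 25 µM gave -3.04 (SE 0.23, edgeR adjusted p = 4.8e-22). Icam1 was at 90.4 ± 9.75, 90.7 ± 2.71, 59.7 ± 13.9 and 48.7 ± 3.94 CPM over the 4 doses. Ccl9, a chemokine, was at 289.8 ± 14.4, 302 ± 16.6, 216 ± 8.77 and 125 ± 8.50 CPM, and Rsbn1, a histone demethylase gene, at 118 ± 19.8, 108 ± 10.9, 59.3 ± 9.44 and 33.3 ± 6.80 CPM. Between 50 and 25 µM Ccl9 and Rsbn1 passed, while Il6 and Icam1 did not (edgeR adjusted p = 0.091 and 0.139). Between 100 and 25 µM 15 of 26 cytokines were lower and 0 higher, with a median of -0.87, and 21 of 32 effector genes were lower and 0 higher, with a median of -0.84.

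Immediate early genes divided over dose. Egr1 was at 74.4 ± 8.07, 289.6 ± 52.7, 420.3 ± 129.6 and 748 ± 145 CPM at 0, 25, 50 and 100 µM. Ccn1 was at 136 ± 35.8, 406 ± 97.2, 549.8 ± 137 and 888 ± 80.9 CPM. Both were higher at 100 than at 25 µM (1.37 and 1.13, edgeR adjusted p = 8e-09 and 1.2e-07). Fosl2 was highest at 25 µM, with 247 ± 14.6, 371 ± 27.8, 262 ± 37.5 and 161 ± 18.1 CPM over the 4 doses, and Socs3, with 126 ± 15.3, 257 ± 48.5, 204 ± 48.3 and 72.8 ± 18.6 CPM, also had its highest mean there. Between 100 and 25 µM 10 of the 32 immediate early genes were higher and 9 lower, and 10 of the 19 MAP kinase feedback genes were lower and 0 higher. Between 100 and 0 µM 2856 genes (26.5%) passed, 1236 higher (11.5%) and 1620 lower (15%). Genes higher at 25 than at 0 µM and lower at 100 than at 0 µM included Fosl2 (0.58 and -0.63), Ier3 (0.54 and -0.56), Socs3 (1.02 and -0.80), Dusp6 (0.66 and -0.37), Nr4a1 (0.58 and -0.72), Errfi1 (0.56 and -0.42), Lif (0.50 and -0.60) and Thbs1 (0.51 and -0.46). They were named after their values were seen.

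**Figure D4:**
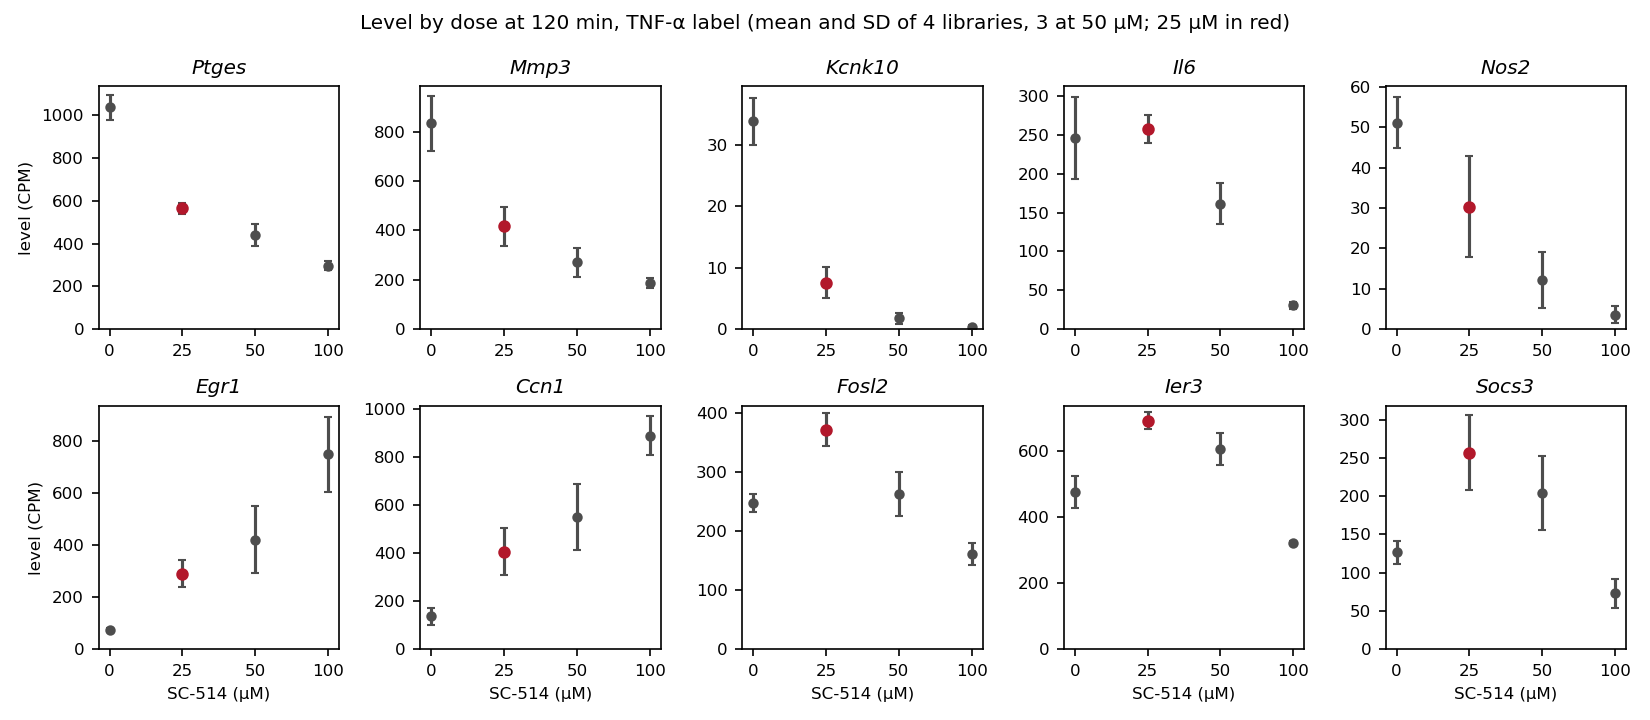
Level in CPM (y axis) at 0, 25, 50 and 100 µM SC-514 (x axis, doses spaced evenly) at 120 min under the TNF-α label, as mean and SD of 4 libraries, or 3 at 50 µM, with 25 µM in red. Ptges, Mmp3 and Kcnk10 step down from 0 µM, Il6 is level at 0 and 25 µM and low at 100 µM, and Egr1 and Ccn1 climb. Fosl2, Ier3 and Socs3 have their highest mean at 25 µM. Between 50 and 25 µM Fosl2 passed (edgeR adjusted p = 0.011), while Ier3 and Socs3 did not.

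Over the time course Egr1 and Zfp36 were highest at 60 min, and most immediate early genes passed at 120 min. At 60 min 1039 genes (9.65%) passed between 25 and 0 µM, and at 15, 30 and 360 min 847 (7.87%), 904 (8.4%) and 294 (2.73%) did. Among all genes tested 3.78, 3.76, 4.07, 4.03 and 0.474% were higher and 4.09, 4.63, 5.58, 4.79 and 2.26% lower at 15, 30, 60, 120 and 360 min. Of the immediate early list 15, 5, 4, 22 and 0 of 32 genes were higher and 0, 0, 3, 0 and 2 lower at the same times. Egr1 was at 200.5, 356, 756, 289.6 and 55.8 CPM at 25 µM over these times, against 85.7, 341, 778, 74.4 and 40.7 CPM at 0 µM. The means were close at 30 and 60 min and apart at 15 and 120 min. Zfp36 was at 66.6, 271, 650.2, 97.7 and 29.3 CPM at 25 µM, against 40.5, 303, 585, 22.4 and 29.4 CPM at 0 µM.

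The effect of 25 µM was tested for a difference between 120 and 60 min, with no library in common. It differed in 68 genes (0.632%), 60 with a larger (0.557%) and 8 with a smaller value (0.0743%) at 120 min. Of the 32 tested immediate early genes 12 had a larger and 0 a smaller value. Of 87 ribosomal protein genes, a list added after the data were seen, 19 had a larger and 0 a smaller value. The difference was 2.00 for Egr1 (SE 0.31, edgeR adjusted p = 1.6e-05), 1.97 for Zfp36, 1.35 for Junb and 2.67 for Fos. For Ddit4 it was 1.70: its level at 60 and 120 min was 112 and 113 CPM at 25 µM, against 135 and 41.7 CPM at 0 µM. Srf differed by 0.01 with an interval of -0.38 to 0.40, and its level at 25 µM was 131 to 136 CPM at every time up to 120 min. When each library number was left out in turn, 18 to 29 genes passed this test.

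Between 120 and 60 min the effect differed for 1 of the 26 cytokines and chemokines, Il6, and for 0 of the 32 effector genes. The share among all genes tested was 0.632%, so 0 of 32 does not show that the effect was equal at both times. Il6 was at 12.2, 26.2, 111, 257 and 33.6 CPM at 25 µM at 15, 30, 60, 120 and 360 min, against 26.4, 73.6, 301, 246 and 115 CPM at 0 µM. It was lower at 25 µM at 30, 60 and 360 min (-1.48, -1.43 and -1.73, edgeR adjusted p = 0.00013, 4.8e-08 and 1.3e-06), and did not pass at 120 min. The difference between 120 and 60 min was 1.48 (SE 0.28, edgeR adjusted p = 0.00071), and that between 360 and 120 min was -1.78 (SE 0.33, edgeR adjusted p = 0.00023). Cxcl1 was at 76.9, 445, 1707, 919 and 190.4 CPM at 25 µM, against 126, 734, 2130.0, 822 and 504 CPM at 0 µM. Its change of -1.40 at 360 min differed from that at 120 min by -1.56 (SE 0.21, edgeR adjusted p = 1.8e-07). Mmp3 was lower at 25 µM at every time, with 223, 204, 321, 417 and 412 CPM, against 305, 313, 549, 834 and 964 CPM at 0 µM.

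**Figure D5:**
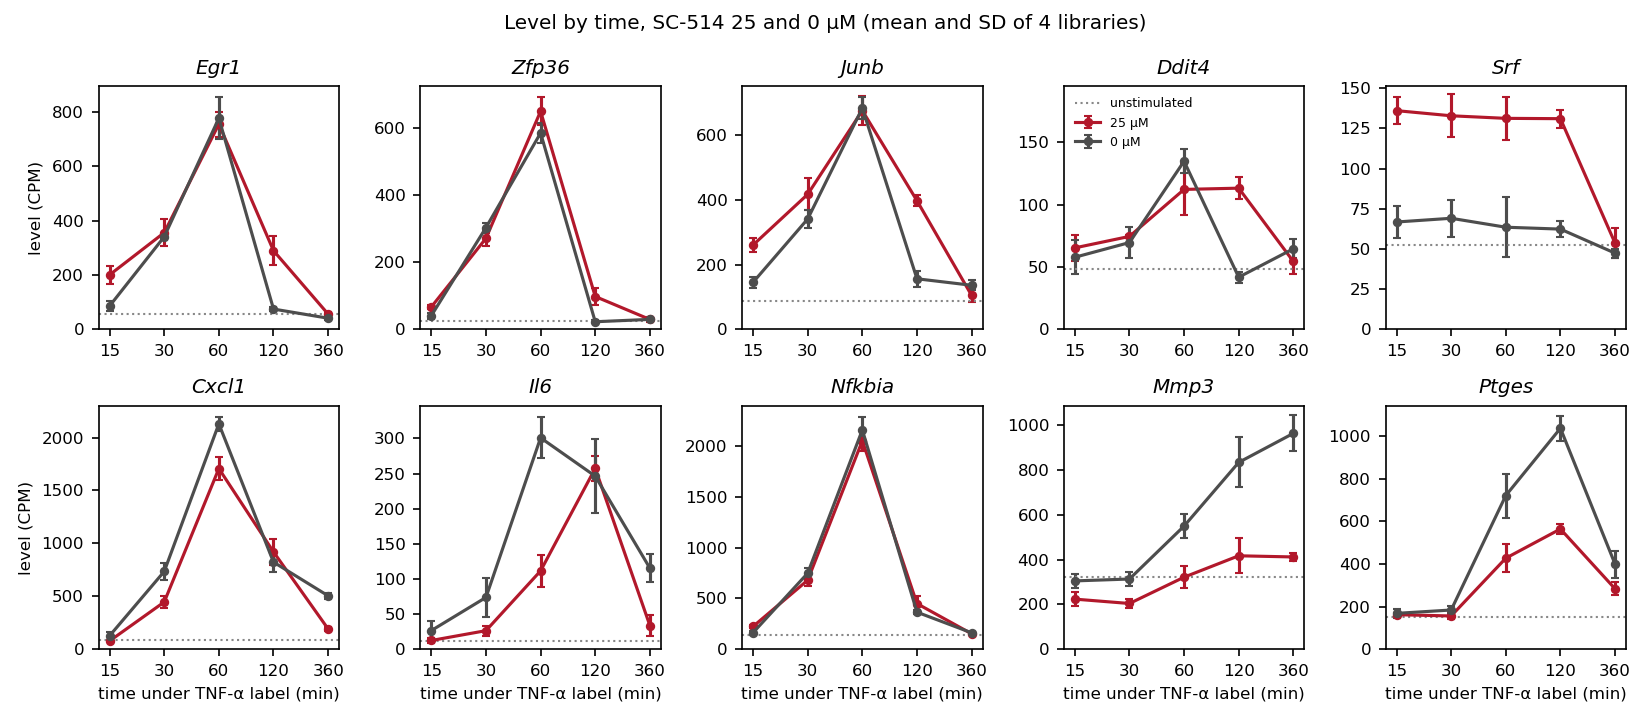
Level in CPM (y axis) at 15, 30, 60, 120 and 360 min under the TNF-α label (x axis, times spaced evenly), as mean and SD of 4 libraries, with 25 µM SC-514 in red and 0 µM in grey, and the unstimulated mean as a dotted line. Egr1, Zfp36, Junb and Ddit4 passed as higher at 25 µM at 120 min and did not pass as higher at 60 min, Il6 at 25 µM meets the 0 µM level at 120 min, and Mmp3 is lower at 25 µM throughout.

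Between 360 and 120 min the effect differed in 134 genes (1.24%), 25 with a larger (0.232%) and 109 with a smaller value (1.01%) at 360 min. When each library number was left out in turn, 51 to 82 passed. Among them were Junb (-1.72), Dusp5 (-1.22), Kctd11 (-1.35), Ssbp2 (-1.16) and Srf (-0.86), which did not pass as higher at 360 min. Under RLE scaling 149 genes differed, 41.6% of them larger at 360 min against 18.7% with TMM. With RLE after leaving out the 2 shallow libraries of the series 141 differed, 22.7% of them larger. Of the 434 genes higher at 120 min 11 (2.53%) were higher also at 360 min, which is 21.6% of the 51 higher there, and 10 were lower at 360 min. Of the 516 lower 95 (18.4%) were lower also at 360 min, which is 39.1% of the 243 lower there. At all 4 other times 6 of the higher and 51 of the lower genes were called the same way.

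Under the IL-1β label at 120 min the same dose was tested in other libraries. There 1501 genes (13.9%) passed between 25 and 0 µM, 727 higher (6.75%) and 774 lower (7.19%). Of the 434 genes higher under TNF-α 272 (62.7%) were higher under IL-1β, which is 37.4% of the 727, and of the 516 lower 344 (66.7%) were lower, which is 44.4% of the 774. Mmp3 was at 355 ± 24.7 CPM at 25 µM and 809.8 ± 26.3 CPM at 0 µM under IL-1β, and Egr1 at 364 ± 33.9 CPM and 81.5 ± 16.8 CPM (SD, n = 4 each). Of the immediate early list 21 of 32 were higher and 1 lower.

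How far the 25 µM change depended on the stimulus was tested as a difference, and it passed for 2 genes (0.0186%), Cxcl1 and the ribosomal protein gene Rpl38, out of 10766. Cxcl1 was at 294 ± 22.4 CPM at 25 µM and 512 ± 52.0 CPM at 0 µM under IL-1β (SD, n = 4 each), while under TNF-α it did not pass, and the difference of the log2 changes was 0.96 (SE 0.20, edgeR adjusted p = 0.032). With 1 library number left out in turn 0 or 1 gene passed. Il6 was at 91.6 ± 25.4 CPM at 25 µM and 179 ± 14.3 CPM at 0 µM under IL-1β (SD, n = 4 each), and the difference from TNF-α was 1.01 with an interval of 0.46 to 1.57 and an edgeR adjusted p of 0.46 over all genes. Icam1 was at 25.1 ± 5.76 CPM at 25 µM and 46.7 ± 9.26 CPM at 0 µM under IL-1β, with a difference of 0.89 and an interval of 0.32 to 1.46 (edgeR adjusted p = 0.74). An unadjusted p under 0.05 in edgeR's test was found for 494 of the 10766 genes, fewer than 1 in 20. Without library number 1 or 2 of every group it was found for more than 1 in 20 (679 of 10649 and 575 of 10831). Without number 3 or 4 it was found for fewer (368 of 10855 and 413 of 10841).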

How the data were processed

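Poly(A) RNA of mouse 3T3 fibroblasts was read by TagSeq. Bowtie2 and GRCm38 (mm10) are named in the submitters' processing notes. The tool and annotation behind the counts are not given in the sources used. The deposited table holds the authors' raw counts for 22070 genes. Its 656 sample records are 4 per column, and each column was 1 library. Gene names and positions came from GENCODE M21 (21858 identifiers matched, 212 did not).

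With edgeR 4.0.16 (R 4.3.3), the 10766 genes passing filterByExpr were TMM-scaled and fitted with 1 robust quasi-likelihood model over all 41 groups (biological coefficient of variation 0.0799, 123 residual degrees of freedom). Tests were two-sided, with Benjamini-Hochberg adjustment within each comparison and a threshold of 0.05. The steps were tested on simulated data. Levels of single genes are counts scaled to a common library total with the TMM factors (CPM), as mean ± SD over libraries. Summed markers and the floor were scaled by the library totals without these factors. On that scale a floor of 3 counts was 2.09 to 3.02 CPM in the 8 libraries and covers counting error only. In pairs of libraries within these groups, chi-squared per degree of freedom was 1.19 to 2.69, so none were counted as 1 sample. Correlations of the deviations between 25 and 0 µM libraries of the same number were 0.0908, 0.0431, 0.1344 and 0.0494. Those between different numbers were -0.1043 to 0.0739. All were small, and the main fit did not pair the libraries. Fits with the number as a block are described below.

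Genes named were the 12 most changed in each direction with an adjusted p under 0.05, at least 5 CPM in the higher group and separate libraries, up to 3 members of each list, up to 4 per other test and a set of standard NF-κB genes; others are said to be chosen after their values were seen or are members of a described count. The comparison and the gene lists were chosen with earlier results of these data known. Alternatives were RLE scaling, no filter, other sets of libraries, the library number as a block, each library or number left out, and DESeq2 1.42.0. No column was left unused. The result of 1 gene is not reported here.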

Additional observations from a re-analysis of the deposited data

Results flagged for a closer look

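Among 218 groups of 4 libraries of named genes, 15 (6.88%) held 1 library far from the other 3, where chance gives about 1 in 20. At 25 µM these were Nes (9.744 CPM in number 2, against 4.049 to 5.013), H2-K1 (1625 in number 4), Psmb9 (73.24 in number 1), Col1a2 (2489 in number 2) and Tubb3 (6.496 in number 2). At 0 µM they were Nmnat2 (59.95 in number 1, against 74.72 to 76.83), Zfp36 (29.16 in number 4), Cxcl5 (1994 in number 2), Nfkbia (389.7 in number 3), Nfkbiz (240.9 in number 2), Icam1 (104.9 in number 1), Irf9 (85.27 in number 3), Stat2 (88.68 in number 3), H2-K1 (1369 in number 1) and Abcc1 (255.1 in number 4). All are in CPM.

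The effect of 25 µM on the log2 scale differed between 120 and 60 min, by edgeR's test of the difference, for Fos (2.67), Zfp36 (1.97), Egr1 (2.00), Junb (1.35), Ddit4 (1.70), Il6 (1.48), Ier3 (0.58), Pim3 (0.83), Socs3 (1.22), Btg2 (1.23), Ccn1 (1.19) and, with a smaller value at 120 min, Nfkb1 (-0.70). Ier3 and Btg2 had changes of -0.04 and -0.12 at 60 min, against 0.54 and 1.11 at 120 min.

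Between 360 and 120 min the effect was smaller at the later time for Synm (-2.35), Zfp36 (-2.11), Atoh8 (-2.30), Kctd11 (-1.35), Ccl9 (-0.66), Junb (-1.72), Ddit4 (-1.68), Cxcl1 (-1.56), Fosl2 (-1.11), Ssbp2 (-1.16), Nfkbiz (-0.84), Ccl2 (-0.70), Il6 (-1.78), Ptgs2 (-1.07), Ier3 (-0.84), Srf (-0.86), Dusp5 (-1.22), Phlda1 (-0.91), Dusp6 (-1.27), Socs3 (-1.50), Btg2 (-1.35), Bnip3 (-1.46), Ccn1 (-1.50), Ankrd1 (-1.45) and Id1 (-1.04). It was larger for Nes (1.61), Megf10 (1.86), Abcc1 (0.54) and Hsph1 (0.53). Cxcl1 differed between TNF-α and IL-1β at 120 min by 0.96.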

How the results depend on the processing

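No named gene reversed, and the 950 calls between 25 and 0 µM were 787 to 1030 under RLE scaling (1001), no low-count filter, the TNF-α label only (903), the block, or without the shallow libraries. Fewer passed with only the 8 libraries (661) or with DESeq2 on them (408, with 182 higher and 226 lower). Leaving out library numbers or single libraries gave 576 to 835 calls, 240 to 377 higher and 297 to 486 lower; number 3 of every group gave 576, number 2 613, and any 1 of the 8 libraries at least 733. Leaving out a number gave 0 to 62 calls for 50 against 25 µM, 831 to 1067 for 100 against 25 µM, 18 to 29 for 120 minus 60 min, 51 to 82 for 360 minus 120 min, and 0 to 1 for TNF-α minus IL-1β. RLE gave 50 calls for 50 against 25 µM, and 96 after the 2 shallow libraries were left out. For TNF-α minus IL-1β, 5 passed with RLE, 4 with RLE or TMM without the shallow libraries, and 11 without the filter. The main fit did not pair libraries by number. With the number as a block, 1012 genes passed over all groups. Over the 8 libraries 1030 passed with the block, beside 661 without it, and of the 1030, 464 were higher and 566 lower. Over all groups the block gave 80 for 120 minus 60 min, 168 for 360 minus 120 min and 3 for TNF-α minus IL-1β. The causes were not tested. Over single genes and list counts, 2817 values were the same as in the main fit, 286 weaker and 79 stronger. For a gene this refers to its side of the threshold, and for a list to a count near the main one. Bnip3 lost its call in 11 of 21 alternatives and Cxcl5 gained one in 10. At these depths, changes of genes under about 10 CPM rest on few counts.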

Other observations

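Ribosomal protein genes, a list added after the data were seen, rose in part. Of 87 tested, 27 were higher and 2 lower at 25 µM, against 4.03% and 4.79% of all genes tested. The median log2 change was 0.14, and under RLE scaling 27 were higher and 2 lower with a median of 0.12. Without library number 1 of every group 12 were higher, and with DESeq2 14. Between 25 and 0 µM at 15, 30, 60 and 360 min 0, 6, 2 and 0 were higher and 2, 2, 20 and 9 lower. Among all genes tested 3.78, 3.76, 4.07 and 0.474% were higher and 4.09, 4.63, 5.58 and 2.26% lower at those times. Under IL-1β at 120 min 7 were higher and 2 lower, beside 6.75 and 7.19% of all genes. The median of the list was -0.02 at 50 µM and -0.026 at 100 µM, each against 0 µM under TNF-α at 120 min.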
